A study of Mus musculus with 6 samples.

Results

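Genes of the Wnt pathway were followed in undifferentiated mouse embryonic stem cells (mESCs) with and without *Alkbh1*, the gene of a 2-oxoglutarate dioxygenase. A list of 51 Wnt ligands, receptors, inhibitors and effectors was used, and 46 of them had at least 1 named probe set among the 15357 genes of the array table. The expression of the other 5 members, *Wnt3*, *Gsk3a*, *Rnf43*, *Znrf3* and *Lgr5*, was not analysed here. Members were found by gene symbol, by an older symbol or by gene identifier, and each gene was represented by its brightest probe set, that is, the group of oligonucleotides with the highest mean over all arrays. Several members stand in the table under older names, such as Tcf3 for *Tcf7l1*, Tcf4 for *Tcf7l2* and Catnb for *Ctnnb1*, and the gene identifier decided. The probe set of *Fzd9* carries the symbol FZD3 in the table and was assigned to *Fzd9* by its identifier.

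The cells were of C57BL/6 background, at passage 8 and day 0 of differentiation. Both genotypes, wild type (WT) and *Alkbh1*-/-, were grown with LIF on irradiated mouse embryonic fibroblasts and were derived from littermate embryos of heterozygous parents. Each genotype was measured on 3 Affymetrix arrays. The sample names of a genotype share 1 prefix, and the sources used here do not say that the 3 arrays of a genotype come from separate lines, so a difference between genotypes and a difference between lines cannot be told apart.

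Wnt proteins are secreted, lipid-modified ligands that bind Frizzled receptors and the co-receptors Lrp5 and Lrp6. In the canonical branch, binding halts the destruction complex of Axin, Apc and Gsk3, so that beta-catenin (*Ctnnb1*) accumulates and joins the Tcf and Lef factors in the nucleus. In mESCs, Wnt signals favour self-renewal by relieving repression through Tcf7l1, and in the early embryo they drive formation of the primitive streak. Other ligands, among them Wnt5a, act largely through receptors that do not stabilise beta-catenin.

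Levels are given on 2 scales. The authors' mean over all 6 arrays, a log2 value, was available for all 33142 probe sets of the table and ran from 3.22 to 14.67. The authors' means of each genotype, as geometric means of the linear intensity, were available for 4261 probe sets. Those entries had passed a filter of the class comparison and a nominal p of 0.05, and the smallest difference among them was 1.29-fold. A member with group means therefore had to differ, and a member without them was not shown to be equal in the genotypes. The group means carry no values of single arrays. The tables also hold the authors' own statistics and p-values for this comparison, which were not used, so the ratios below are given without a test or a spread, and whether the arrays of the groups overlap was not examined. The number of arrays limits the precision.

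*Alkbh1* itself served as a check of the group names. The authors' mean intensity of *Alkbh1* at its brightest probe set, 1434660_at, was 761 in WT and 25.7 in *Alkbh1*-/- mESCs, a 29.6-fold lower mean without the gene. Its other probe set, 1438681_at, had means of 120.0 and 34.6. All 10 markers of embryonic stem cells that were examined had high mean levels, between 10.05 and 14.49 on the log2 scale. Of these, 5 had group means at the brightest probe set and 5 did not. *Nanog* and *Klf4* were higher in *Alkbh1*-/- mESCs past a fold of 1.5, with ratios of 2.15 and 1.59. They are 20% of the markers, against 4.68% of the genes outside the Wnt list. *Esrrb* and *Zfp42* were higher under that fold, with ratios of 1.47 and 1.33, and *Utf1* was lower, with a ratio of 0.714.

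Group means were found for 11 of the 46 Wnt genes, or 23.9%, and for 14.8% of the 15311 other genes. At the brightest probe set, 8 Wnt genes (17.4%) were lower in *Alkbh1*-/- than in WT mESCs by more than 1.5-fold, against 4.94% of the other genes. Only *Sfrp1* (2.17% of the members) was higher by that fold, against 4.68% of the other genes. The other genes include 524 X-linked genes, and no measured Wnt gene is X-linked. Of these 524, 281 had group means and 260 were higher in *Alkbh1*-/- mESCs at any fold. Shares of the other genes without the X-linked ones were not computed. When the other genes were weighted to the mean levels of the Wnt genes in 10 bins, the share with group means was 16.5%. The weighted shares past the fold were 5.78% lower and 5.12% higher. The members and the lists below were chosen with earlier results of these data known, so these shares describe the genes and test nothing. Ligands, receptors, the nuclear factor *Lef1* and the inhibitor *Sfrp2* made up the lower genes.

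**Figure D1:**
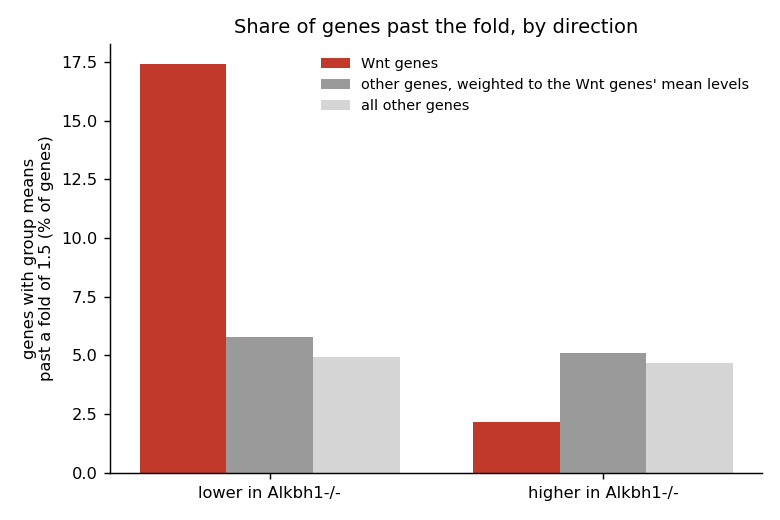
Bars give the percentage of genes whose group means, at 1 probe set per gene, differ by more than 1.5-fold between the genotypes, for the 46 Wnt genes, for the other genes weighted to the same mean levels, and for all 15311 other genes; bars have no error because single arrays were not available. Among the Wnt genes, 17.4% were lower and 2.17% higher in *Alkbh1*-/- mESCs, while the other genes were divided about evenly. The other genes include X-linked genes, which were mostly higher where they had group means, and none of the Wnt genes is X-linked. The Wnt genes were chosen with earlier results of these data known.

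**Figure D2:**
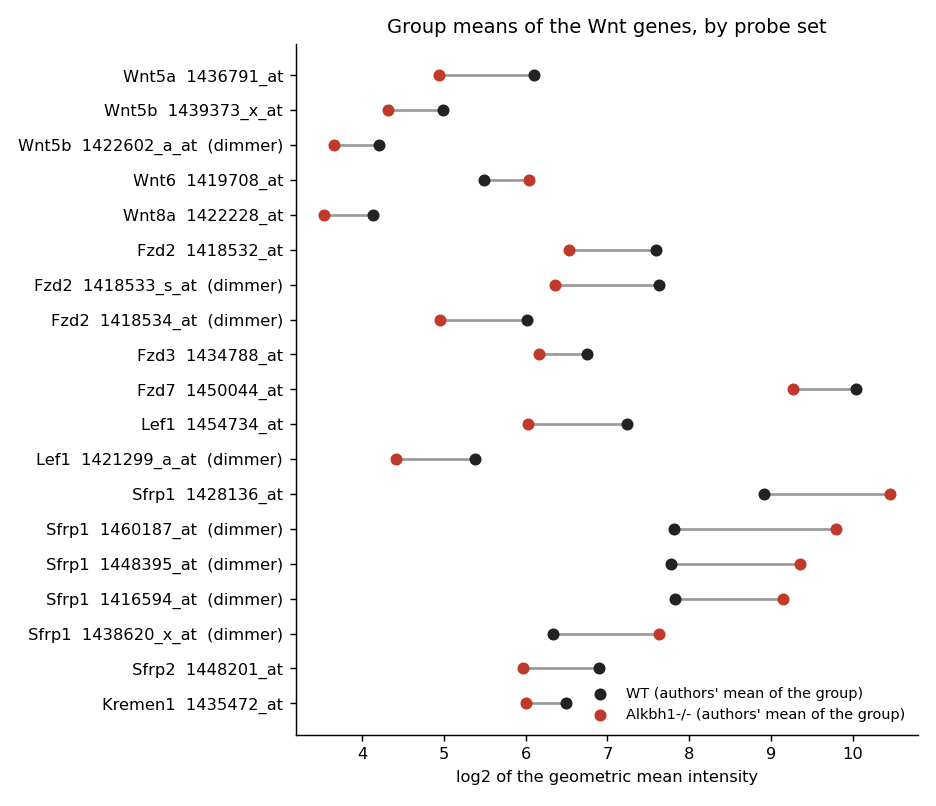
Points give the log2 of the authors' geometric mean intensity in WT (black) and *Alkbh1*-/- (red) mESCs for each of the 19 probe sets of Wnt genes that have group means, with a line joining both values of a probe set. The red points lie to the right for *Sfrp1* and *Wnt6* and to the left for the other genes, at every probe set shown.

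Among the ligands, 3 of the 12 measured genes, counting *Wls*, were lower past the fold. *Wnt5a*, a ligand of mainly non-canonical signalling that guides cell movement, had a mean intensity of 68.8 in WT and 30.8 in *Alkbh1*-/- mESCs, a 2.23-fold lower mean. Its dimmer probe set had no group means. *Wnt5b*, its closest paralog, was lower by 1.59-fold, from 31.7 to 20.0, and its dimmer probe set by 1.47-fold, from 18.5 to 12.6. Both probe sets of *Wnt5b* were dim, with mean log2 values of 4.65 and 3.94 over all arrays. *Wnt8a*, a ligand of the early primitive streak, had means of 17.6 in WT and 11.6 in *Alkbh1*-/- mESCs, a 1.52-fold lower value. The mean level of *Wnt8a* over all arrays was 3.84 on the log2 scale, near the bottom of the range of the table, where differences in intensity are small.

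*Wnt6* went the other way and stayed under the fold. Its mean intensity was 44.8 in WT and 66.0 in *Alkbh1*-/- mESCs, a ratio of 1.47. The remaining ligands had no group means. Their mean log2 values over all arrays were 5.47 for *Wnt3a*, 6.16 for *Wnt4*, 5.63 for *Wnt7a* and 7.74 for *Wnt7b*. *Wnt9a*, *Wnt10a* and *Wnt11* were at 5.18, 4.65 and 5.26 on the same scale. *Wls*, which carries Wnt proteins to the cell surface, had a mean log2 value of 7.61.

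Of the 12 receptors and co-receptors, 3 Frizzled genes were lower past the fold. *Fzd2* had 3 probe sets, and all 3 had group means. At the brightest of them, 1418532_at, the mean intensity was 194 in WT and 92.0 in *Alkbh1*-/- mESCs, a 2.11-fold lower value. The dimmer probe sets of *Fzd2* were lower by 2.42-fold (198 against 81.9) and 2.09-fold (64.6 against 30.9). Thus the probe sets of *Fzd2* gave the same direction and similar sizes.

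*Fzd7*, a receptor known for its part in the self-renewal of pluripotent cells, had a mean intensity of 1049 in WT and 617 in *Alkbh1*-/- mESCs, a 1.70-fold lower value. A far dimmer probe set of *Fzd7*, with a mean log2 value of 4.81, had no group means. *Fzd3*, a receptor needed for the growth of axons, was lower by 1.51-fold at 1434788_at, from 108 to 71.5. Its other 3 probe sets, with mean log2 values of 5.43 to 6.11, had no group means. *Fzd3* and *Wnt8a* lay just past the fold of 1.5.

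No group means were given for the other receptors. *Fzd5* had a mean log2 value of 9.68 at its brightest probe set and 7.77 at the other. The means of *Fzd1*, *Fzd6*, *Fzd9* and *Fzd10* were 6.05, 6.74, 6.18 and 6.19 on the log2 scale. *Fzd4* and *Fzd8* were at 3.92 and 5.66. The co-receptors *Lrp5* and *Lrp6* had mean log2 values of 4.31 and 6.69.

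None of the 8 measured genes of the cytoplasmic relay had group means at any probe set. These genes carry the signal from the receptor to beta-catenin, and many of them are bright on the array. *Ctnnb1*, the gene of beta-catenin, had a mean log2 value of 12.88 over all arrays. The scaffold *Apc* was at 9.65, *Axin1* at 8.71 and the kinase *Gsk3b* at 8.77. The Dishevelled genes *Dvl1*, *Dvl2* and *Dvl3*, which link Frizzled to the destruction complex, had mean log2 values of 9.24, 8.47 and 4.78. *Axin2*, both a scaffold and a widely used reporter of canonical signalling, was at 7.46.

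**Figure D3:**
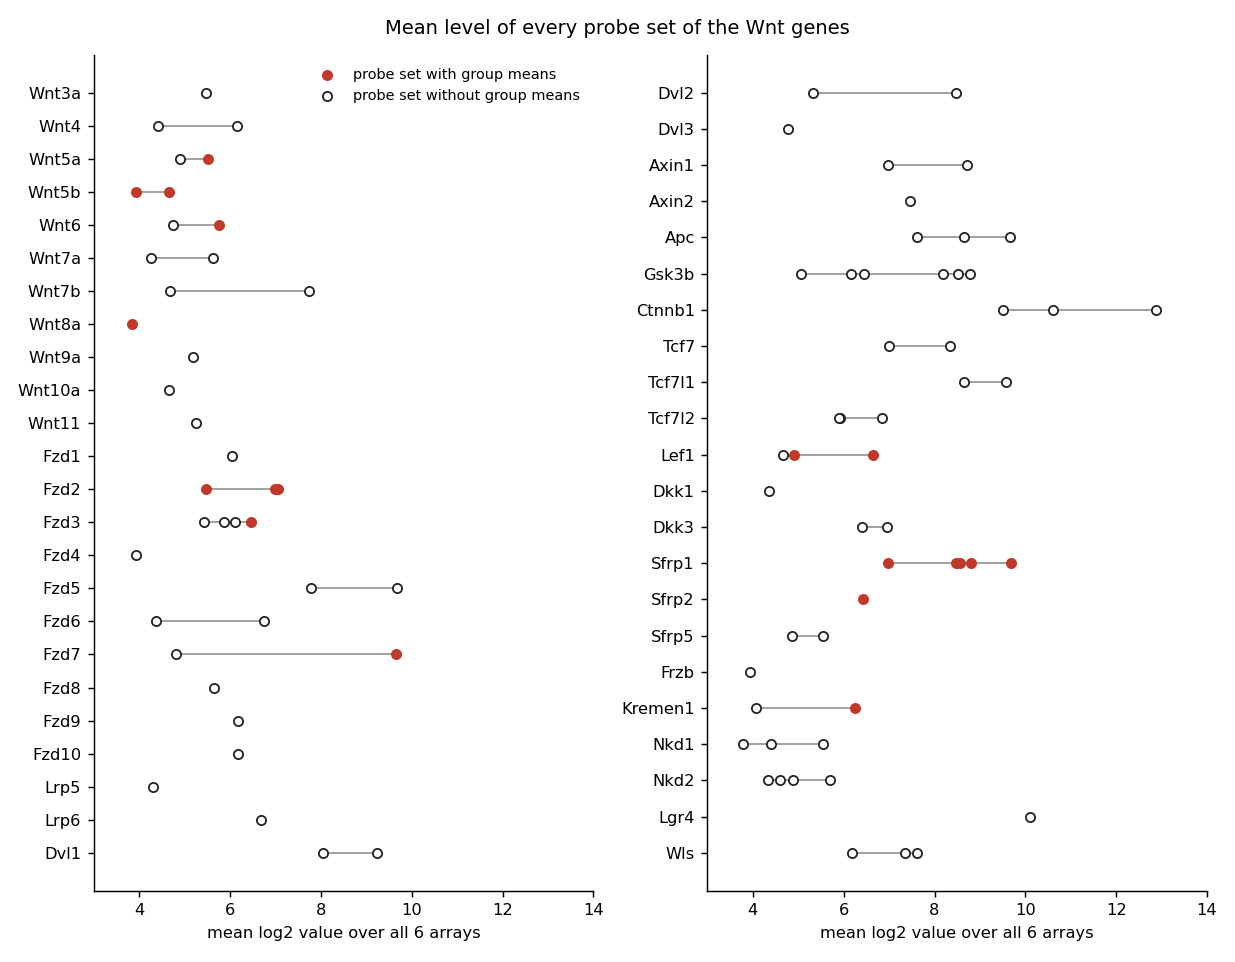
Each point is a probe set of a Wnt gene, placed at the authors' mean log2 value over all 6 arrays; red points have group means and white points do not, and a line joins the probe sets of a gene. Levels of different probe sets are not comparable with each other, and the red points include all 3 probe sets of *Fzd2* and all 5 of *Sfrp1* but none of *Ctnnb1*, *Apc* or *Gsk3b*.

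Among the 4 nuclear effectors, *Lef1* alone had group means. *Lef1*, a factor that binds DNA together with beta-catenin and is itself a target of the pathway, had a mean intensity of 152 in WT and 65.4 in *Alkbh1*-/- mESCs at 1454734_at, a 2.32-fold lower value. A dimmer probe set of *Lef1* was lower by 1.95-fold, from 41.8 to 21.4. The third, at a mean log2 value of 4.66, had no group means. *Tcf7l1*, the repressor of pluripotency genes, had a mean log2 value of 9.58, and *Tcf7* and *Tcf7l2* were at 8.34 and 6.85.

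The inhibitors included the one gene that was higher past the fold. *Sfrp1*, a secreted protein that resembles the ligand-binding part of Frizzled and sequesters Wnt, had a mean intensity of 481 in WT and 1406 in *Alkbh1*-/- mESCs at 1428136_at, a ratio of 2.92. Its other 4 probe sets all had group means and all were higher in *Alkbh1*-/- mESCs, with ratios of 3.94, 2.97, 2.50 and 2.45. At 1460187_at, the probe set with the ratio of 3.94, the means were 225 and 888. Of the Wnt genes with group means, *Sfrp1* thus differed most, at each of its 5 probe sets.

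*Sfrp2*, a paralog of the same secreted family, was lower in *Alkbh1*-/- mESCs. Its mean intensity was 119 in WT and 62.6 in *Alkbh1*-/- mESCs, a 1.90-fold lower value at its single probe set. *Kremen1*, a receptor for Dkk proteins that removes Lrp6 from the surface, had means of 90.1 and 64.1, lower by 1.41-fold and so under the fold of 1.5. No group means were given for the other inhibitors. *Dkk1* and *Dkk3* had mean log2 values of 4.35 and 6.95. *Sfrp5* and *Frzb*, of the secreted Frizzled-related family, were at 5.55 and 3.93. *Nkd1* and *Nkd2*, which bind Dishevelled, were at 5.55 and 5.70. *Lgr4*, a receptor for R-spondins that protects Frizzled from degradation, had a mean log2 value of 10.11 and no group means.

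Of the genes lower past the fold, the promoters of *Fzd7*, *Lef1* and *Sfrp2* are shown to let the sequence before their starts be compared. They are the 250 bases before the first RefSeq start listed for each gene (assembly GRCm38.p6, all on the plus strand), at chr1:59481897-59482146, chr3:131110047-131110296 and chr3:83766071-83766320. Capitals mark matches, on either strand, to the words bound by Tcf and Lef factors that were searched, which are CTTTG followed by a pair of bases that are each adenine or thymine.
Fzd7: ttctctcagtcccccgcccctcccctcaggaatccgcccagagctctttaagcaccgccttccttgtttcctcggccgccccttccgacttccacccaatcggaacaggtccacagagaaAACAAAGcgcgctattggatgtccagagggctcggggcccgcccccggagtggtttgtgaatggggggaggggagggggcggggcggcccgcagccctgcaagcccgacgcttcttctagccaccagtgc
Lef1: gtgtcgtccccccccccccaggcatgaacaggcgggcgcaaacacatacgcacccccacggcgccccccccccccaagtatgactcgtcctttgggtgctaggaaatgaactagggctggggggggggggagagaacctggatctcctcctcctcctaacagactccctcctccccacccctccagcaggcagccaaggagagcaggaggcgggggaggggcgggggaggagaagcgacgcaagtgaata
Sfrp2: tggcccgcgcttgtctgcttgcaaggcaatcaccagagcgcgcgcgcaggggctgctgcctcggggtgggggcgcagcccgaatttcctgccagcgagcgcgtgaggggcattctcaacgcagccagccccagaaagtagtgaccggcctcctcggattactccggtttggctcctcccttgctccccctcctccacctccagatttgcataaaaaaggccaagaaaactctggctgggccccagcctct

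The *Fzd7* promoter held 1 such word, in reverse orientation, and those of *Lef1* and *Sfrp2* held none in this window. All 3 were rich in G and C (65.2% for *Fzd7*, 66.4% for *Lef1* and 63.6% for *Sfrp2*) and held 17, 11 and 16 CpG dinucleotides. The promoter of *Wnt5b*, also lower past the fold and not printed, held none of the words, 35 CpG dinucleotides and 75.2% G and C. Over the 34 of the 51 listed members with a promoter sequence, *Wnt3*, *Gsk3a* and *Rnf43* among them, the median GC content was 70% and the median number of CpG dinucleotides was 23, against 52% and 6 over 27025 genes. At least 1 of the searched words was found in 4 of the 34 members' promoters (11.8%) and in 14.9% of all promoters. A match is a description of these letters and not of binding.

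Beyond the members, 57 other genes of the pathway were examined, of which 48 had a probe set and 9 had group means at the brightest one. Past the fold, 3 (6.25%) were lower and 1 (2.08%) was higher in *Alkbh1*-/- mESCs, shares near or below the 4.94% and 4.68% of the genes outside the members. The lower genes included *Rspo1*, a secreted enhancer of Wnt signals, by 2.26-fold (45.8 against 20.3), and *Ror1*, a receptor for Wnt5a, by 1.78-fold (28.5 against 16.0). Both were dim, with mean log2 values of 4.93 and 4.42 over all arrays. *Celsr3*, a cadherin of planar polarity, lay just past the fold, at a ratio of 0.666 (106 against 70.7). *Notum*, a secreted enzyme that strips the lipid from Wnt proteins, was higher, with means of 53.6 and 131 and a ratio of 2.45. Dimmer probe sets with group means were higher for *Tle3* (ratio 1.55), *Vangl2* (1.39) and *Btrc* (1.33 and 1.36) and lower for *Tle1* (0.700). Under the fold at the brightest probe set, *Dkk2* (ratio 0.670) and *Prickle1* (0.756) were lower and *Tle3* (1.49) was higher. *Porcn*, which attaches the lipid, and *Amer1* were also higher under the fold, with ratios of 1.48 and 1.37, and both are X-linked. Of 524 X-linked genes, 281 had group means, 260 of these were higher in *Alkbh1*-/- mESCs and their median ratio was 1.68. None of the 46 members is X-linked. For them too, a difference between genotypes and a difference between lines cannot be told apart.

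Known targets of Wnt signalling or of Tcf7l1 were examined as a list of 18 genes, 7 of them members. Of 15 with a probe set, 4 (26.7%) were lower and 2 (13.3%) higher past the fold. Over the genes outside the members, these shares were 4.94% and 4.68%. Of the lower genes, *Lef1* is also a member. With *Lef1*, the lower genes were *Sp5* (246 against 87.9), *T* (118 against 65.0) and *Myc* (532 against 324), by 2.79-fold, 1.81-fold and 1.64-fold. *Sp5* and *T* are induced by Wnt at the primitive streak. The higher genes were *Nanog* and *Tfcp2l1*, pluripotency factors repressed by Tcf7l1, with ratios of 2.15 and 1.51. *Esrrb* and *Klf2*, of the same kind, had ratios of 1.47 and 1.34. The targets *Axin2*, *Tcf7*, *Nkd1*, *Ccnd1*, *Cd44*, *Cdx1* and *Cdx2* had no group means at any probe set.

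The cultures contained feeder fibroblasts, and some of the fibroblast transcripts examined were lower in *Alkbh1*-/- mESCs, as the 8 Wnt genes were. Of 20 fibroblast markers, all with a probe set and with mean log2 values of 5.08 to 11.82, 7 had group means at the brightest probe set. All 7 were lower in *Alkbh1*-/- mESCs, with ratios of 0.465 to 0.698. Past the fold were 6 of them, or 30% of the 20 markers, against 4.94% of the genes outside the Wnt members. The summed intensity of these 7 markers was 7079 in WT and 3608 in *Alkbh1*-/- mESCs. Genes had to differ to have group means, so this sum does not give the change over all 20 markers. The range over arrays was not available for this sum. *Col1a1*, the gene of a chain of type I collagen, had means of 527 and 253. The others past the fold were *Tagln*, *Col5a2*, *Fbn1*, *Col3a1* and *Col6a1*, and the other 13 markers had no group means at their brightest probe set. Dimmer probe sets of *Col1a2* and *Prrx1*, which are among these 13, had group means and ratios of 0.478 and 0.545. The ratios of the 8 Wnt genes lower past the fold ran from 0.431 to 0.662. Of these, *Wnt5a* (0.448) and *Lef1* (0.431) lay just below the range of the markers and the other 6 within it. Genes of both sets had to differ to be counted, so an overlap of the ranges was largely fixed beforehand. The part of fibroblast RNA in the 8 Wnt genes was not tested. In bulk RNA, fewer cells of a type and less RNA per cell cannot be told apart. *Sfrp1* and *Wnt6* were higher while these markers were lower.

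**Figure D4:**
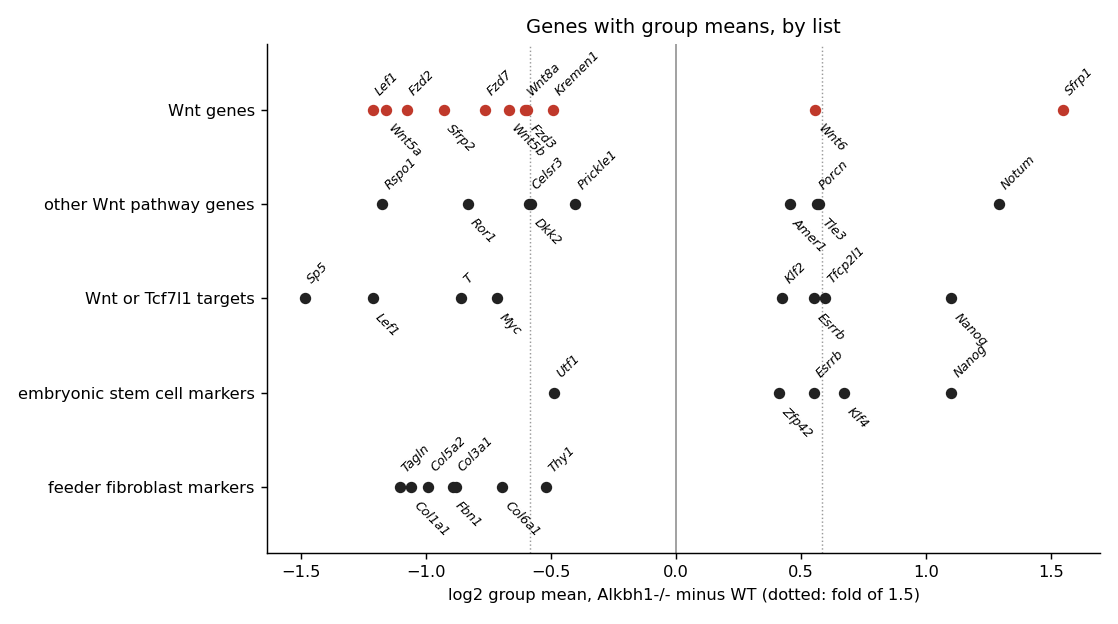
Each point is a gene with group means, placed at the difference of its log2 group means, *Alkbh1*-/- minus WT, at its brightest probe set; rows are the Wnt genes and the lists examined beside them, and dotted lines mark a fold of 1.5. The fibroblast markers all lie to the left, the stem cell markers except *Utf1* to the right, and the Wnt genes to the left except *Wnt6* and *Sfrp1*.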

How the data were processed

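The authors normalized 6 Affymetrix whole-genome mouse arrays together with RMA and deposited 2 tables of their comparison. From the first, only the deposited mean log2 value over all arrays was used. From the second, a class comparison run by a contractor, only the deposited geometric mean intensity of each genotype was used. The description that came with the tables states that its class C1 is the wild type under a mislabelled class name. The WT samples themselves are described with another class name. Its header states that 7320 of 45101 probe sets passed a filter and that those with a nominal p of 0.05 are listed. The remaining columns hold the authors' fold changes, statistics, p-values and adjusted p-values and were not used.

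Identifiers and values of the second table do not stand together. Its 4326 entries were therefore matched to probe sets by the mean of both log2 group means, within 1e-06. This joined 4261 entries, 8 of them with the same identifier. Another probe set also lay within this tolerance for 29 entries, none of a member. For 713 genes with more than 1 joined probe set, the brightest and the next lay on the same side of a ratio of 1 in 710 (r = 0.94 across genes, which are not independent replicates), against 355 (r = -0.00024) by identifier. The join was checked on simulated tables.

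Probe sets were named through RefSeq genes of GRCm38.p6 (28205, or 85.1%). Folds were computed from the group means, with 1.5 as the threshold that the study's methods name on a log2 scale and that was used here on the linear scale. All 51 listed members were to be named, and of other lists the genes past the fold. The members and lists were chosen with earlier results of these data known. A limma fit was planned for values of single arrays and was not run, because the columns used here are means. The authors' statistics and p-values test the same comparison for each probe set and were set aside, so no test is given here. Promoters came from RefSeq, with 34 members matched. Python 3.11.15, pandas 2.3.3, NumPy 2.4.6 and matplotlib 3.10.9 were used.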

Additional observations from a re-analysis of the deposited data

How the results depend on the processing

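The counts of Wnt genes depend on the fold. Above 2-fold, 3 members were lower in *Alkbh1*-/- mESCs, and with a threshold below 1.5-fold, the lowest one tried, 2 were higher and 9 lower. A match of values 10 times as narrow kept group means for 9 of the 11 members, with 6 lower and 1 higher, and the median log2 difference over members with group means went from -0.67 to -0.60. Centring on the median log2 difference of all entries (0.42), which were listed for differing and are no neutral reference, gave -1.09, with 9 members lower and 1 higher. The median mean level was 6.34, or 6.01 with the mean over all probe sets of a gene. The other probe set of *Alkbh1* had a ratio of 0.288 against 0.0338. None of the 11 members past or under the fold changed direction under these alternatives or at another probe set with group means. Group means by identifier were not used, because values and identifiers do not match. No paired analysis was possible because the tables give no values of single arrays, and arrays could not be left out for the same reason.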
